A study of Mus musculus with 8 samples.

Results

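The receptors and ligands of platelet-derived growth factor (PDGF) were followed across 8 libraries of mouse P19 cells. The set holds 6 of the 37558 genes of the count table, the receptor genes Pdgfra and Pdgfrb and the ligand genes Pdgfa, Pdgfb, Pdgfc and Pdgfd, picked by symbol. Their levels in these same libraries were known when they were chosen, so the levels are given as a description and no test was made on them. Of the 6 genes, 5 reached a level of 1 CPM, the count scaled to the size of the library, in at least 1 library, as did 15547 genes of the table. Pdgfd did not.

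P19 is an embryonal carcinoma line that can form muscle or neurons in culture. Each culture was infected with lentivirus in the presence of polybrene and moved afterwards to Neurobasal, a neuronal medium, with B27 supplement, so these conditions are shared by all groups, the control included. The control carried GFP. The others carried MyoD, which drives skeletal muscle, NeuroD2, which drives neurons, a chimera in which the DNA-binding bHLH domain of NeuroD2 stands in for that of MyoD, or a mutant of the chimera, WC or WCS, 2 names whose meaning is not spelled out. One further library each of the chimera and of WCS carries the label MOI 100, a multiplicity of infection, and the other 6 libraries have no MOI label. The study asked whether the specificity of DNA binding sets the lineage that such a factor drives. Each of the 8 groups was 1 library, so no value below has a replicate check, and a factor may have reached only some of the cells of a culture.

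Totals ran from 26410500 to 43984066 counts per library. Myod1, whose count does not separate the delivered from the cells' own gene, had 0.681 CPM with GFP, 0.804 with NeuroD2, and 77.3 to 857 CPM in the 6 libraries that carried MyoD or a chimera. Neurod2 had 180 CPM in NeuroD2, 13.8 to 130 in the chimera, WC and WCS libraries, 2.51 in GFP and 0 counts in MyoD. Between the libraries without and with the MOI 100 label Myod1 was 4.80-fold higher in the chimera (95% interval 4.62 to 4.99) and 11.1-fold higher in WCS (10.6 to 11.6). The 5 embryonal carcinoma markers, among them Pou5f1, summed to 2650 CPM in GFP and to 389 to 1144 CPM elsewhere. The 5 muscle markers summed to 9291 CPM in MyoD, 896 in the chimera and 1499 in the chimera at MOI 100, against 14.6 to 47.6 CPM in the other 5 libraries. The 5 neuron markers summed to 142 CPM in GFP and 3130 CPM in WCS at MOI 100, the lowest and highest sums.

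PDGFs are secreted growth factors that act as dimers on a pair of receptor tyrosine kinases. PDGF-A and PDGF-C act mainly through the alpha receptor encoded by Pdgfra, PDGF-D mainly through the beta receptor encoded by Pdgfrb, and PDGF-B through both. The alpha receptor is known from mesenchyme, from oligodendrocyte precursors and from the connective tissue progenitors that lie between muscle fibres, and the beta receptor from pericytes and smooth muscle. PDGF-C and PDGF-D are secreted in a latent form that proteases must cut.

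MyoD and NeuroD2 bind the E-box, a motif of the form CANNTG. For that reason the 250 bases before the transcription start are shown for Pdgfra, Pdgfa and Pdgfc, the members that reached 5 CPM and had their highest level in MyoD or in the chimera, with any E-box in capitals. They are RefSeq sequences on build GRCm38.p6, read 5′ to 3′ on the gene's strand. The interval is chr5:75152001-75152250 on the plus strand for Pdgfra, chr5:138994945-138995194 on the minus strand for Pdgfa at the upstream one of its pair of listed starts, and chr3:81036166-81036415 on the plus strand for Pdgfc. These coordinates belong to a later build than mm9, on which the reads were aligned.
Pdgfra: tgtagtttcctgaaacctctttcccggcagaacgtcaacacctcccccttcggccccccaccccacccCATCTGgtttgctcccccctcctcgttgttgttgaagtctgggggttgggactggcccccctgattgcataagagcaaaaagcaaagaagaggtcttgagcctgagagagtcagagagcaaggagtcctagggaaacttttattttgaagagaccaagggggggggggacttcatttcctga
Pdgfa: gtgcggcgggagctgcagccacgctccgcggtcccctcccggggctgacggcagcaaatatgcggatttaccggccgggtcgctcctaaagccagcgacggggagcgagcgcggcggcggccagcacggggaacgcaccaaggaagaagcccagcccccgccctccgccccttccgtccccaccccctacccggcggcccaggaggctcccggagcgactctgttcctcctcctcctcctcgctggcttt
Pdgfc: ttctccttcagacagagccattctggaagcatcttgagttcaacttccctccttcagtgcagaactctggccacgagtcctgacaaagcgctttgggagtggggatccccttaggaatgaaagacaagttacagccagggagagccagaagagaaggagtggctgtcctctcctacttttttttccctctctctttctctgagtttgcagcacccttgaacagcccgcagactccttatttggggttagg
The Pdgfra window held 1 E-box, CATCTG, whose first base lies 182 bases before the start. Read on the other strand it is CAGATG. Over both strands 14.4% of the 32851 RefSeq promoter windows of this length held CAGATG, and 66.2% held CANNTG in any form. CAGCTG and CAGGTG stood in 13% and 17.2% of windows and in none of those of Pdgfra, Pdgfa, Pdgfc or Pdgfd. The other Pdgfa start and the Pdgfd window held no CANNTG either. A match is a match of letters and no evidence of binding, and a window without one says nothing about sites elsewhere.

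Pdgfra, the alpha receptor, was highest in the chimera. It stood at 4.69 CPM in GFP, 1.69 in MyoD, 49.1 in the chimera, 19.99 in the chimera at MOI 100, 5.23 in WC, 4.04 in WCS, 5.14 in WCS at MOI 100 and 7.69 in NeuroD2. Thus it was high in both chimera libraries, lowest in MyoD and near the GFP level in the WC and WCS libraries. In bulk RNA a difference in the number of cells of a type and a difference in RNA per cell cannot be told apart, here and in every result below. Over GFP the chimera held 10.5-fold more (8.99 to 12.2) and the chimera at MOI 100 held 4.26-fold more (3.61 to 5.04). MyoD held 2.78-fold less than GFP (1.99 to 3.95) and NeuroD2 1.64-fold more (1.34 to 1.997). Neither factor the chimera was built from had a level near that of the chimera, which was 29.1-fold above MyoD (21.5 to 40.2) and 6.39-fold above NeuroD2 (5.54 to 7.41). Among 15547 measured genes Pdgfra ranked 13 from the top in the chimera over MyoD and 71 in the chimera over NeuroD2.

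All intervals here are exact 95% intervals on the counts of a pair of libraries and cover counting error only. For scale, WC and WCS, which carry different mutants and are no replicates, lay a median of 1.06-fold apart. This was over 14308 genes with 50 or more counts in the pair, and the 95th percentile was 1.298-fold. That pair cannot measure the spread between cultures. Pdgfra was 1.29-fold higher in WC than in WCS (1.02 to 1.65), near that 95th percentile. Its differences between the chimera libraries and the rest were larger than this gap. In the order of its 8 levels, the 3 steps from WC through WCS at MOI 100 and GFP to WCS were within counting error. The other 4 steps exceeded it, from NeuroD2 over WC at 1.47-fold (1.19 to 1.81) to the chimera at MOI 100 over NeuroD2 at 2.601-fold (2.22 to 3.05).

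**Figure D1:**
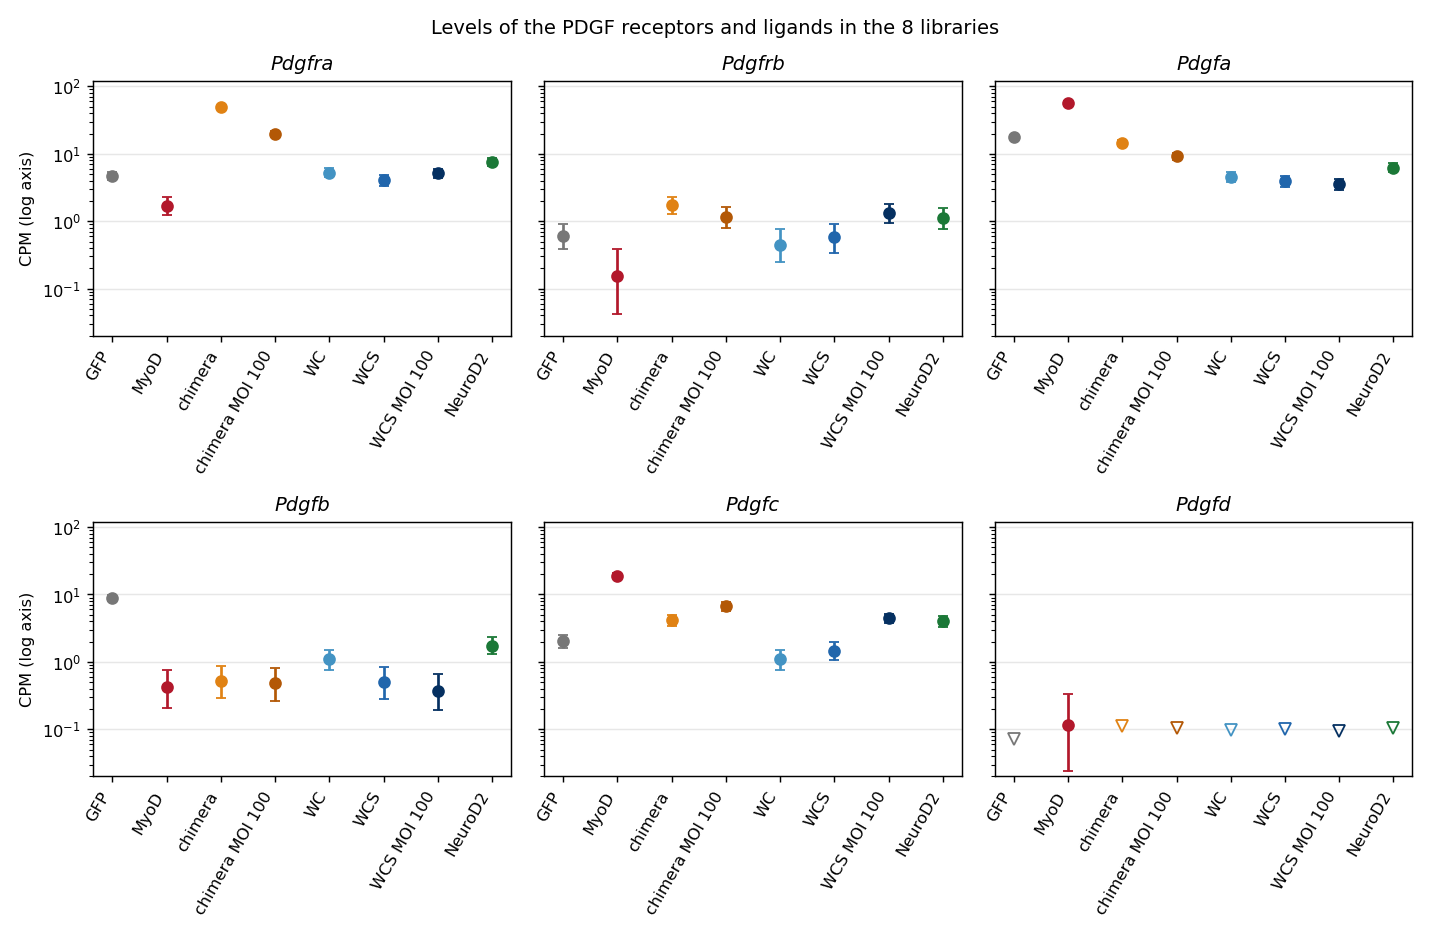
CPM of each member (log axis) in the 8 libraries, 1 point per library, with bars for the exact Poisson 95% interval of the count; open triangles mark the floor of 3 counts where a library had 0. Pdgfra peaks in the chimera at 49.1 CPM, Pdgfa and Pdgfc in MyoD at 57.6 and 18.9 CPM, and Pdgfb in GFP at 8.85 CPM.

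Genes with the peak that Pdgfra was chosen for were counted as a description. Of 15547 measured genes, 3 (0.0193%) stood at least 2-fold above every other library in the chimera without the MOI label, on log2(CPM + 0.5), while reaching 5 CPM. They were Pdgfra, H2-Aa, a class II histocompatibility gene, at 15.8 CPM in the chimera and 3.92 or less elsewhere, and Msln, mesothelin, at 6.25 CPM in the chimera and 2.72 or less elsewhere. H2-Aa and Msln are named after their values were seen. Among all measured genes 9 (0.0579%) were at least 4-fold higher in the chimera than in GFP and at least 2-fold lower again at MOI 100, and Pdgfra was one of them. For comparison 337 genes were at least 4-fold higher in the chimera than in GFP.

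Pdgfrb, the beta receptor, was low in every library. It had 25 counts in GFP, 4 in MyoD, 46 in the chimera, 33 in the chimera at MOI 100, 14 in WC, 17 in WCS, 42 in WCS at MOI 100 and 32 in NeuroD2. In CPM these are 0.608, 0.154, 1.73, 1.145, 0.449, 0.5775, 1.32 and 1.12. The highest levels were in the chimera and the lowest in MyoD, as for Pdgfra, with the chimera 11.3-fold above MyoD (4.12 to 43.2) and 2.85-fold above GFP (1.72 to 4.84). Of the 7 steps in its order of levels, NeuroD2 over GFP alone exceeded counting error, at 1.84-fold (1.06 to 3.24). Because it stayed under 5 CPM everywhere, Pdgfrb could not meet the size rule used below.

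Levels of different genes were compared per kilobase of exon, with the union of exons of each gene in GENCODE M21. On that scale Pdgfra exceeded Pdgfrb in all 8 libraries, by 2.13-fold in WCS at MOI 100 to 15.5-fold in the chimera. The receptors together came to 5.22 CPM per kilobase in the chimera, 2.203 in the chimera at MOI 100 and 0.197 to 0.971 in the other 6 libraries. The 4 ligands together came to 22.3 CPM per kilobase in MyoD, 8.25 in GFP, 5.51 in the chimera and 4.35 in the chimera at MOI 100. In NeuroD2, WCS at MOI 100, WC and WCS the ligand sum was 3.20, 2.08, 1.92 and 1.67. So the library with the highest ligand sum, MyoD, had the lowest receptor sum. Pdgfa made up 54.0% to 82.8% of the ligand sum in the 8 libraries.

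Pdgfa, which encodes the PDGF-A chain, was highest in MyoD. Its levels were 17.9 CPM in GFP, 57.6 in MyoD, 14.2 in the chimera, 9.13 in the chimera at MOI 100, 4.49 in WC, 3.94 in WCS, 3.51 in WCS at MOI 100 and 6.22 in NeuroD2. MyoD lay above GFP and the other 6 libraries below it. MyoD was 3.22-fold above GFP (2.95 to 3.53), WCS at MOI 100 was 5.09-fold below (4.16 to 6.26), WCS 4.53-fold (3.72 to 5.56), WC 3.97-fold (3.31 to 4.80) and NeuroD2 2.87-fold (2.43 to 3.40). The chimera was closer to GFP, 1.25-fold below (1.11 to 1.42), and at MOI 100 it was 1.96-fold below (1.70 to 2.26). In the order of its levels the steps from WC to WCS and from WCS to WCS at MOI 100 were within counting error, and the 5 steps above them exceeded it.

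An antisense gene, 6330403L08Rik, shares 813 exon bases with Pdgfa in GENCODE M21, and the strand setting of the counting is not given in the sources used here. Its level was 7.53 CPM in MyoD, 2.04 in GFP, 1.84 in the chimera at MOI 100 and 1.19 or less in the other 5 libraries. The antisense gene was thus highest in the same library as Pdgfa, and how reads were shared between them was not tested. Gm16000, antisense to Pdgfc over 147 exon bases, had 44 counts in MyoD and 2 to 16 elsewhere. Pdgfra shares 456 exon bases with an antisense model, Gm42802, that has no row in the count table.

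Pdgfc, which encodes the latent PDGF-C, was also highest in MyoD. It stood at 2.02 CPM in GFP, 18.9 in MyoD, 4.18 in the chimera, 6.66 in the chimera at MOI 100, 1.09 in WC, 1.46 in WCS, 4.42 in WCS at MOI 100 and 3.98 in NeuroD2. MyoD was 9.38-fold above GFP (7.42 to 12.0). The chimera at MOI 100 was 3.30-fold above GFP (2.54 to 4.32), the chimera 2.07-fold (1.55 to 2.79), WCS at MOI 100 2.19-fold (1.66 to 2.91) and NeuroD2 1.97-fold (1.47 to 2.65). WC lay 1.85-fold below GFP (1.23 to 2.84), and for WCS the interval spanned no difference (ratio 0.724, 0.489 to 1.06). WCS at MOI 100, the chimera and NeuroD2 held nearly equal levels, with 1.06-fold (0.818 to 1.37) and 1.05-fold (0.801 to 1.38) between neighbours. Pdgfa and Pdgfc were both among the 345 genes (2.22% of those measured) that stood at least 2-fold higher in MyoD than in every other library. Their levels were known when that pattern was set. MyoD was also the library with the highest summed muscle markers. Its pericyte and smooth muscle markers summed to 979 CPM, of which Acta2 gave 888, while Tagln and Cnn1 of that list were 18.2-fold (15.5 to 21.5) and 12.8-fold (7.75 to 22.6) below GFP. The part of such cells in the ligand levels was not tested.

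Set against each other, MyoD held 9.26-fold more Pdgfa (7.92 to 10.9) and 4.75-fold more Pdgfc (3.87 to 5.88) than NeuroD2, while NeuroD2 held 4.55-fold more Pdgfra (3.28 to 6.44). The chimera, which carried MyoD sequence outside the bHLH domain, held 4.04-fold less Pdgfa (3.61 to 4.54) and 4.53-fold less Pdgfc (3.68 to 5.61) than MyoD. Over NeuroD2 the chimera held 2.29-fold more Pdgfa (1.91 to 2.75) and a like level of Pdgfc (ratio 1.05, 0.801 to 1.38). Myod1 itself was 2.56-fold lower in the chimera library (2.46 to 2.67). The chimera lacks the MyoD bHLH domain, so its Myod1 count covers less of the delivered sequence and is no like measure of amount. Construct and delivered amount cannot be told apart in this pair. In the chimera at MOI 100 Myod1 stood at 555 CPM, against 296 CPM in MyoD. Pdgfa there stood at 9.13 against 57.6 CPM and Pdgfc at 6.66 against 18.9 CPM. The parts of construct and delivered amount in these ligand levels were not tested.

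Pdgfb, which encodes the PDGF-B chain, was the member that was low wherever a bHLH factor was delivered. It stood at 8.85 CPM in GFP, 0.422 in MyoD, 0.527 in the chimera, 0.486 in the chimera at MOI 100, 1.09 in WC, 0.5095 in WCS, 0.376 in WCS at MOI 100 and 1.75 in NeuroD2. In counts these were 364 in GFP and 11 to 50 in the other 7 libraries, which all rest on the same GFP library. The gap below GFP ran from 5.07-fold in NeuroD2 (3.76 to 6.96) to 23.5-fold in WCS at MOI 100 (13.3 to 46.0). Among all measured genes 19 (0.122%) stood at least 4-fold higher in GFP than in every other library, Pdgfb among them. That pattern was set with the Pdgfb levels known, so the share is a description. Of the 5 embryonal carcinoma markers Pou5f1, Nanog, Utf1 and Lin28a were also highest in GFP, whereas Sox2 was at 124 CPM in GFP and highest in WCS at 205 CPM. Their part in the Pdgfb level was not tested. Among the 5 libraries below NeuroD2 and WC every step from one level to the next was within counting error.

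Pdgfd, which encodes PDGF-D, had 3 counts in MyoD and 0 in the other 7 libraries. A count of 0 allows a level of up to 0.0730 to 0.113 CPM in those libraries, at 3 counts of each. No ratio is given, since all 8 counts are at or under that floor.

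**Figure D2:**
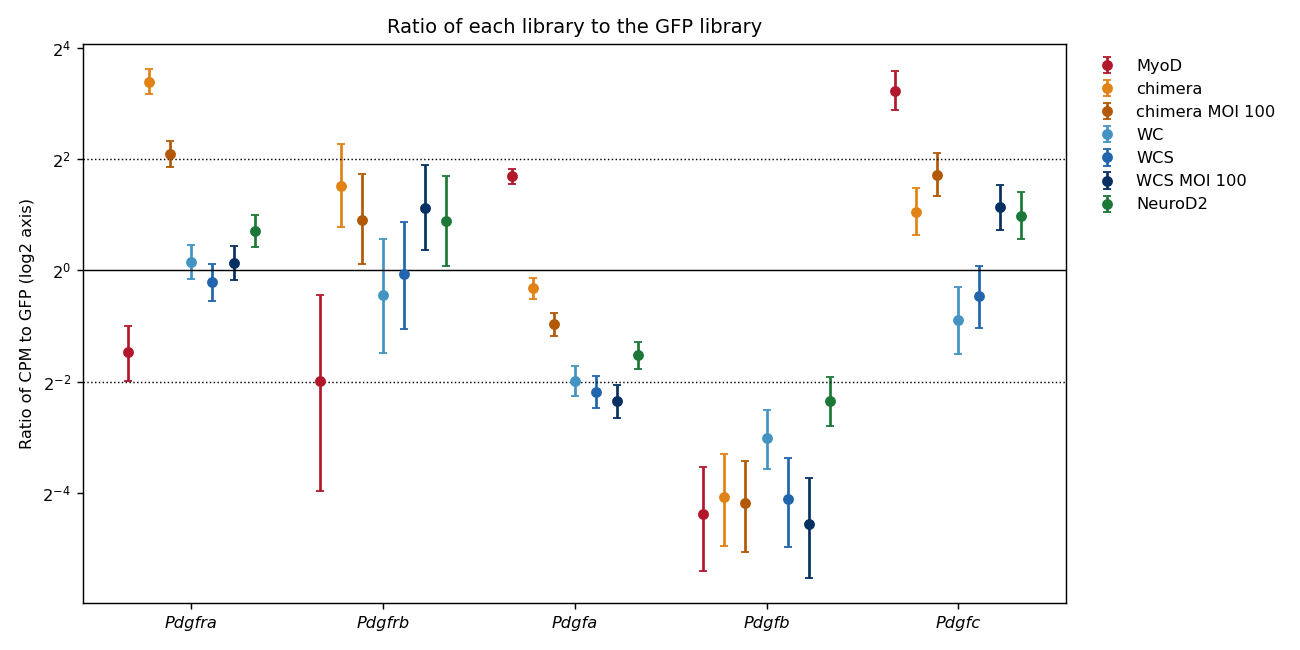
Ratio of CPM in each of 7 libraries to the GFP library (log2 axis) for the 5 members with counts above the floor, with exact 95% intervals for counting error; dotted lines mark 4-fold either way. All 7 libraries share the GFP library. Pdgfb lies below GFP in each, while Pdgfra is 10.5-fold above GFP in the chimera and Pdgfc 9.38-fold above it in MyoD.

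To set the members beside all genes, a size rule asked for a gap of 4-fold or more, on log2(CPM + 0.5), and for a higher level of 5 CPM or more. Over GFP, 1 member was higher in MyoD, Pdgfc, against 2.75% of measured genes, and 1 lower, Pdgfb, against 0.92%. In the chimera 1 was higher, Pdgfra, against 2.17%, and 1 lower, Pdgfb, against 0.72%. Pdgfb was also the 1 member lower in NeuroD2 (1.6% of genes), in the chimera at MOI 100 (2.51%) and in WC (0.605%). In WCS (0.9%) and WCS at MOI 100 (3%) Pdgfb and Pdgfa were both lower. None of these 5 had a member higher, against 4.37% of genes in NeuroD2, 5.4% in the chimera at MOI 100, 2.57% in WC, 2.54% in WCS and 5.47% in WCS at MOI 100. MyoD over NeuroD2 had 2 members higher, Pdgfa and Pdgfc (2.64% of genes), and none lower (4.41%). With total gene counts as the scale Pdgfc there was at 1.98 log2 units and no longer met the rule, and Pdgfra met it as lower at -2.02. The chimera over MyoD had Pdgfra higher (1.42%) and Pdgfc lower (1.91%), and over NeuroD2 it had Pdgfra higher (0.65%) and none lower (1.65%). Since the members were chosen with these levels known, nothing is read from the counts against those shares.

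Several members lay close to the limit of 2 log2 units. On the log2(CPM + 0.5) scale Pdgfra in the chimera at MOI 100 over GFP was at 1.98 and Pdgfa in the chimera over MyoD at -1.98. Pdgfra in MyoD over NeuroD2 was at -1.90 and Pdgfa in WC over GFP at -1.88. For WCS over the chimera, both at MOI 100, Pdgfra was at -1.86. All of these fell just short of the limit. Just past it were Pdgfa in WCS over GFP at -2.05, Pdgfc in the chimera over MyoD at -2.05 and Pdgfb in NeuroD2 over GFP at -2.06.

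Against the chimera itself, the mutants lacked its high Pdgfra level. WC held 9.39-fold less Pdgfra than the chimera (7.97 to 11.1) and WCS 12.2-fold less (10.1 to 14.8). Pdgfra was the 1 member that met the size rule in each, lower in both (0.566% of genes lower in WC, 0.753% in WCS). None was higher, against 0.47% and 0.592% of genes. Pdgfa, Pdgfc and Pdgfrb were lower in both mutants as well. For Pdgfa the gap below the chimera was 3.17-fold for WC (2.604 to 3.88), with 3.61-fold for WCS (2.93 to 4.49). For Pdgfc it was 3.83-fold (2.59 to 5.81) and 2.86-fold (1.996 to 4.17). Pdgfrb was 3.86-fold lower in WC (2.08 to 7.597), and it was 3.001-fold lower in WCS (1.69 to 5.58). Pdgfb went the other way in WC, 2.07-fold higher (1.08 to 4.17), and was level in WCS (ratio 0.966, 0.435 to 2.16).

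The same contrast at MOI 100 gave smaller gaps for Pdgfra, Pdgfa and Pdgfc. WCS held 3.89-fold less Pdgfra than the chimera (3.27 to 4.66), 2.601-fold less Pdgfa (2.08 to 3.27) and 1.51-fold less Pdgfc (1.21 to 1.89). For Pdgfrb and Pdgfb the intervals spanned no difference, with ratios of 1.15 (0.711 to 1.87) and 0.774 (0.327 to 1.803). No member met the size rule at MOI 100, where 0.585% of genes were higher and 1.22% lower. Whether the contrast differs between the MOI labels was not tested, since each cell of the design holds 1 library.

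Between libraries with and without the MOI 100 label the members differed in unlike ways. In the chimera Pdgfra was 2.46-fold lower at MOI 100 (2.23 to 2.715) and Pdgfa 1.56-fold lower (1.33 to 1.83), while Pdgfc was 1.59-fold higher (1.26 to 2.03). In WCS Pdgfc was 3.025-fold higher (2.14 to 4.36) and Pdgfrb 2.28-fold higher (1.27 to 4.27), whereas Pdgfra (ratio 1.27, 0.998 to 1.62) and Pdgfa (0.891, 0.681 to 1.165) were not separated by counting error. Pdgfc was thus higher with the label in both constructs. None of the members met the size rule for the label in either construct, against 0.727% of genes higher and 0.199% lower in the chimera, and 0.714% and 0.463% in WCS. Nor did any in WC over WCS, against 0.0129% higher and 0.00643% lower. Pdgfb was 2.14-fold higher in WC than in WCS (1.14 to 4.23) on 34 and 15 counts.

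**Figure D3:**
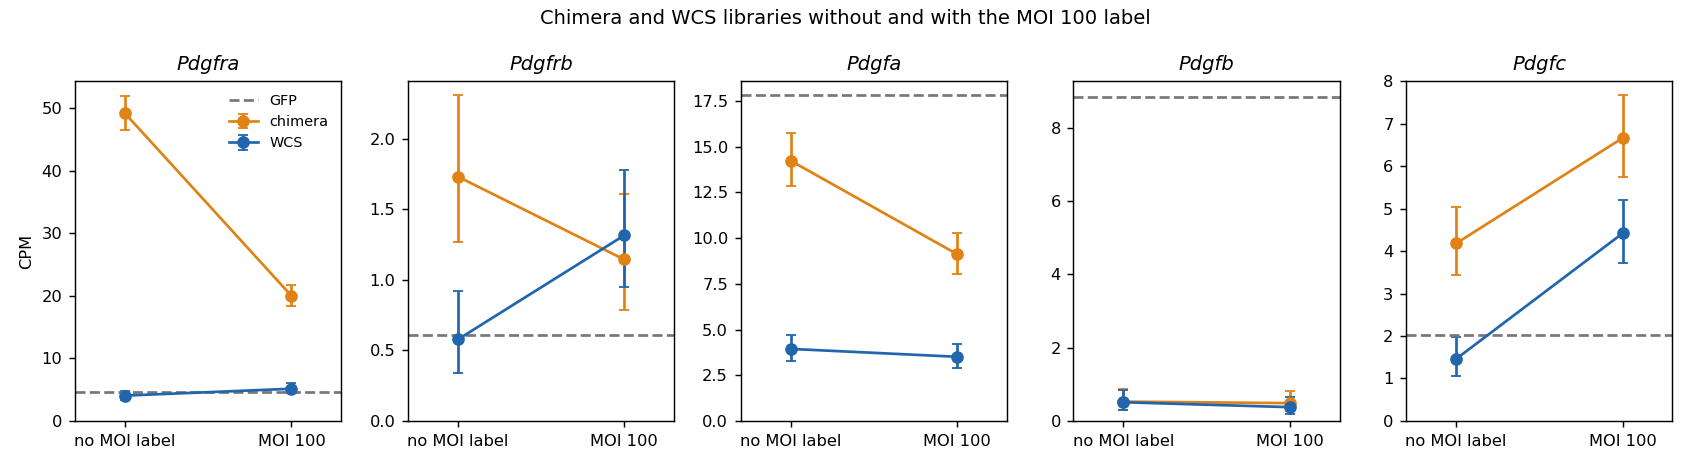
CPM (linear axes from 0, a scale for each gene) of 5 members in the chimera and WCS without an MOI label and at MOI 100, 1 library per point, with exact Poisson 95% intervals; the dashed line is the GFP level. Pdgfra is at 49.1 and 19.99 CPM in the chimera and at 4.04 and 5.14 CPM in WCS, while Pdgfc is higher at MOI 100 in both.

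Markers of cells that normally carry these receptors were summed beside Pdgfra. Of 12 fibroblast and mesenchyme markers 9 were measured. The sum over all 12 was 136 CPM in the chimera and 90.2 in the chimera at MOI 100, against 105 to 200.5 CPM in the other 6 libraries. Lum and Tcf21 were at 0.104 CPM or less throughout. Pdpn and Col1a2 gave 63.1 and 61.7 CPM of the sum in the chimera, and Pdpn gave 168 CPM in GFP. In that list Col1a2 was 4.85-fold above GFP in the chimera (4.39 to 5.36), but it was highest in WC at 103 CPM, where Pdgfra was near the GFP level. The 8 oligodendrocyte precursor markers, 6 measured, summed to 30.7 CPM in the chimera against 134 CPM in WCS at MOI 100 and 11.3 in GFP, with Sox10 and Gpr17 at 0.347 CPM or less. Olig2 in that list was 43.4-fold above GFP in the chimera (22.5 to 96.0), at 9.49 CPM, and stood at 19.2 CPM at MOI 100. It was higher still, at 33.7 to 48.9 CPM, in WC, WCS, WCS at MOI 100 and NeuroD2. Another of the 8, Cspg4, was highest in the chimera libraries, as given below. Pericyte and smooth muscle markers, 7 of 8 measured, summed to 208 CPM in the chimera and 82.6 to 979 CPM elsewhere, with Rgs5 at 0.125 CPM or less. Mesoderm markers, 7 of 10 measured, summed to 33.5 CPM in the chimera and 14.5 to 41.8 elsewhere, with Msgn1 at 0 in all 8 libraries. Within that list Pax3 was 4.49-fold above GFP in the chimera (3.82 to 5.29), with a like level in NeuroD2 (22.4 and 22.2 CPM). Foxc2 was highest in the chimera as Pdgfra was, at 3.805 CPM, with 1.84 at MOI 100 and 0.834 or less elsewhere, and T was 14.3-fold below GFP (9.91 to 21.4). Endoderm markers, 6 of 8 measured, summed to 80.5 CPM in the chimera and 35.2 to 79.1 elsewhere, with Sox17 at 0.0699 CPM or less. Lama1 and Dab2 gave 53.6 and 24.0 CPM of the sum in the chimera, while Gata6 was 7.10-fold below GFP there (5.23 to 9.86). Endothelial markers, 2 of 5 measured, summed to 3.50 CPM or less in every library. The part of any such cells in the Pdgfra result was not tested.

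For each member that reached 5 CPM, the 5 genes with the most similar profile were found by the root mean square difference of log2(CPM + 0.5) over the 8 libraries after subtracting each gene's mean, among 11607 named genes. The closest to Pdgfra were Adamts7, a secreted metalloprotease (0.61), Sec14l2, a lipid-binding protein (0.63), Pax7, the transcription factor of muscle satellite cells (0.67), P3h2, a collagen prolyl hydroxylase (0.70), and Rab32, a small GTPase (0.74). All 5 stood higher in both chimera libraries than in any other library, P3h2 only slightly so at MOI 100 (8.36 against 7.62 CPM in NeuroD2). However, 4 of them peaked at MOI 100, where Pdgfra was below its peak. Pax7, for example, stood at 5.35 CPM in the chimera, 7.496 at MOI 100 and 2.13 or less elsewhere. P3h2 alone was higher without the label, at 11.45 against 8.36 CPM.

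Distances to the nearest genes were smaller for the ligands. Nearest to Pdgfa were Npnt, the matrix protein nephronectin (0.24), Tnfaip3, a ubiquitin-editing enzyme (0.25), Cd44, the hyaluronan receptor (0.30), N4bp3 (0.35) and the homeobox gene Hoxd1 (0.36). Npnt stood at 194 CPM in MyoD, 54.6 in GFP and 10.2 to 38.5 in the other 6 libraries. Nearest to Pdgfc were Sema6b, a semaphorin (0.35), Grip2, a synaptic scaffold (0.38), Nfatc1, a calcium-regulated transcription factor (0.38), Sh3bp5 (0.39) and Traf3ip3 (0.39), all highest in MyoD. Nearest to Pdgfb were Npr1, a natriuretic peptide receptor (0.37), Dusp9, a MAP kinase phosphatase (0.43), Fbxo2 (0.44), Smad6, an inhibitory Smad (0.46), and Slc16a3, a lactate transporter (0.48), all highest in GFP. These distances describe 8 single libraries.

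**Figure D4:**
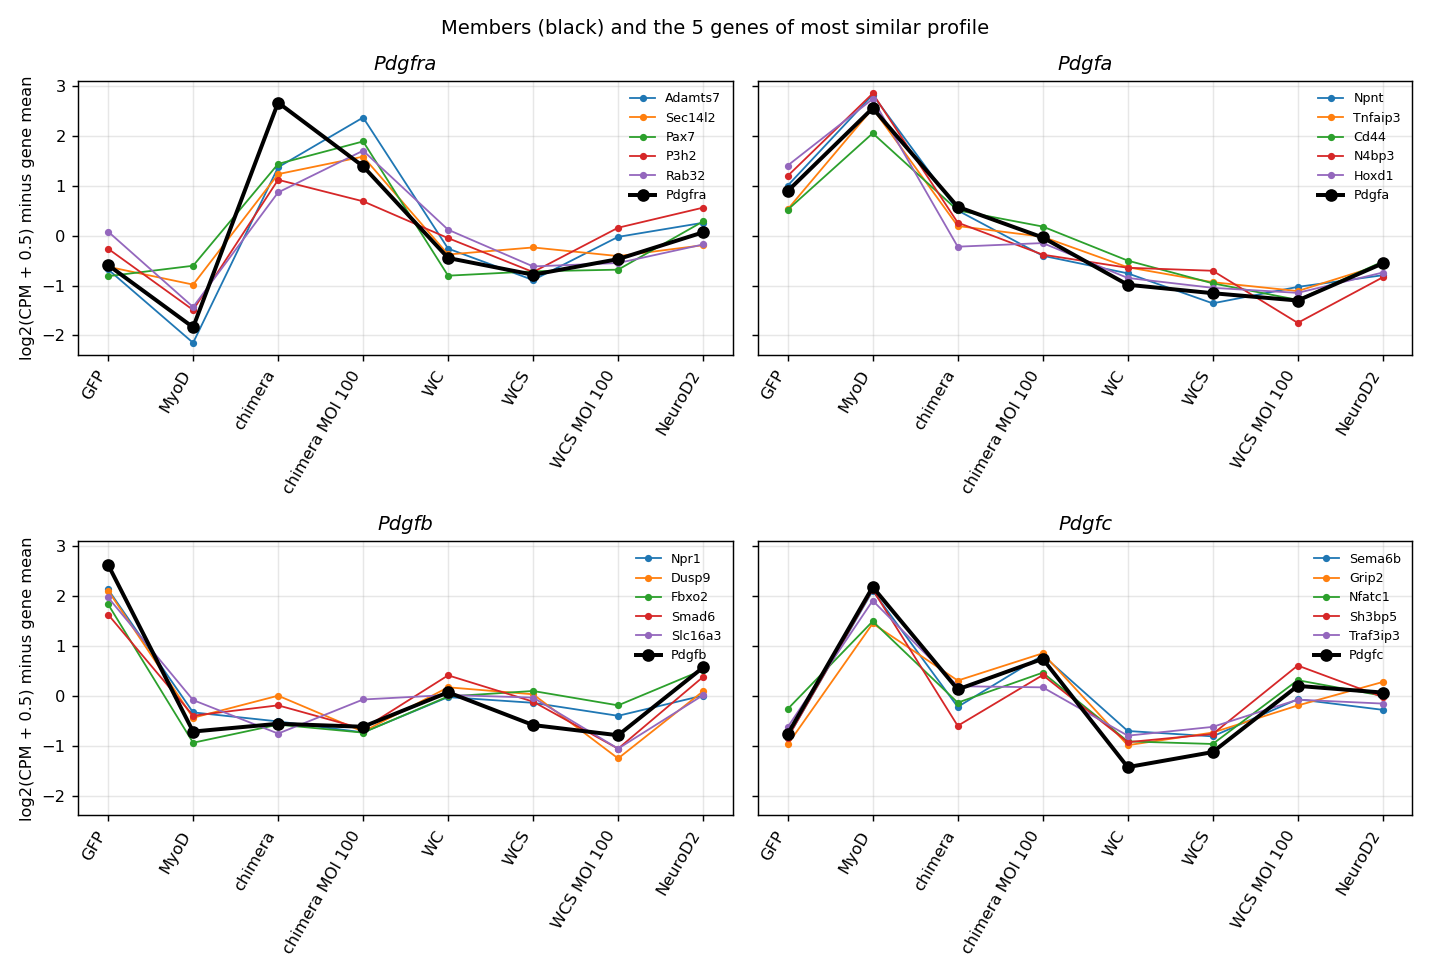
log2(CPM + 0.5) minus the gene's mean over the 8 libraries, for 4 members (black) and the 5 genes nearest to each (colours), 1 point per library. The neighbours of Pdgfa and Pdgfc peak in MyoD and those of Pdgfb in GFP as the members do, while 4 of the 5 neighbours of Pdgfra peak in the chimera at MOI 100 and Pdgfra in the chimera without the label.

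Among genes that act on PDGF ligands, the proteases, all 7 were measured. St14, matriptase, which can cut PDGF-D, was the one that stood lower than GFP by the size rule in 6 libraries. It stood at 5.93 CPM in GFP, 2.90 in NeuroD2 and 0.768 or less in the other 6. Pcsk6, a proprotein convertase, was 4.87-fold above GFP in MyoD (4.27 to 5.57), the library with the most Pdgfa. Pcsk5, another convertase, was 7.64-fold above GFP in WCS at MOI 100 (5.74 to 10.3). Plat, which encodes the tissue plasminogen activator that cuts PDGF-C, had its lowest level, 8.29 CPM, in MyoD, its highest, 25.3, in GFP, and 9.995 to 23.2 elsewhere. Plau, its urokinase relative, stayed at 2.43 CPM or less. In the chimera over GFP the 7 had a median log2 difference of -0.13 against 0.03 for all measured genes, and in MyoD -0.49 against -0.03.

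Coreceptors were measured for 5 of 6. Nrp1, the semaphorin and growth factor coreceptor neuropilin, met the size rule over GFP in 6 libraries, by 5.60-fold in the chimera (4.49 to 7.03), 18.5-fold in NeuroD2 (15.2 to 22.9) and 28.6-fold in WCS at MOI 100 (23.5 to 35.2), but not in MyoD, at 1.69 against 2.50 CPM. Cspg4, the NG2 proteoglycan that can bind PDGF-A, was highest in the chimera libraries, at 3.58 and 4.095 CPM against 0.251 to 1.19 CPM elsewhere, under the minimum of the size rule. Lrp1, an endocytic receptor, stood at 61.1 to 138 CPM and Itgb1, an integrin chain, at 356 to 510 CPM.

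The 36 adaptors and kinases below the receptors, 35 of them measured, had a median log2 difference of 0.01 in the chimera over GFP and 0.23 in MyoD over GFP, against 0.03 and -0.03 for all measured genes. In the chimera none of the 35 met the size rule over GFP, where 2.17% of all measured genes were higher and 0.72% lower, so a count of 0 in a list of this size is close to the background. In MyoD Grb10, a receptor-binding adaptor, was 4.21-fold higher (3.80 to 4.67). Its level was lowest in the chimera at 3.88 CPM, against 12.3 in GFP, 26.2 in WC and 25.7 in WCS. Pik3r1, the regulatory subunit of phosphoinositide kinase, was 4.37-fold higher in NeuroD2 (4.03 to 4.74), 5.07-fold in the chimera at MOI 100 (4.68 to 5.49) and 5.53-fold in WCS at MOI 100 (5.11 to 5.98). Akt1, a kinase downstream of it, ranged from 44.1 CPM in GFP to 174 CPM in the chimera at MOI 100. Mapk3, an ERK kinase, ranged from 57.9 CPM in WCS at MOI 100 to 152 CPM in GFP.

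Genes that restrain receptor tyrosine kinase signalling or PDGF itself, 16 of 16 measured, had 4 members that met the size rule above GFP in MyoD and none below, against 2.75% and 0.92% of all measured genes. These were the Sprouty genes Spry1, Spry2 and Spry4 and the ERK phosphatase Dusp6. Spry4 had 51.8 CPM in MyoD and 1.897 in GFP, 27.3-fold higher (21.7 to 34.7), and 6.77 CPM or less in the other libraries. Spry2 was 6.15-fold higher (5.38 to 7.05), Dusp6 5.37-fold (4.99 to 5.78) and Spry1 4.82-fold (4.29 to 5.42). In the chimera none of the 16 met the rule over GFP, where 2.17% of all measured genes were higher and 0.72% lower. A count of 0 in a list of this size is close to that background. The 4 genes named for MyoD stood in the chimera at 8.36 CPM for Spry1, 8.74 for Spry2, 1.85 for Spry4 and 18.3 for Dusp6. Each was within 1.5-fold of GFP. The list median in MyoD over GFP was 0.12, against -0.03 for all measured genes. Sparc, a matrix protein that binds PDGF-B, was highest in GFP at 347 CPM and lowest in the chimera at MOI 100 at 49.4 CPM, 7.02-fold below GFP (6.65 to 7.42), and it also met the rule in NeuroD2. Socs1, a cytokine signalling inhibitor, was highest in GFP at 5.98 CPM and stood at 1.05 to 2.63 CPM elsewhere. It met the rule in WCS alone, 5.68-fold below GFP (3.90 to 8.54). WC, the chimera, MyoD and NeuroD2 were close to WCS, at 1.12 to 1.26 CPM.

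Of 9 genes known to respond early to growth factors, 8 were measured. Egr1, a zinc-finger factor, stood at 70.8 CPM in MyoD and 58.6 in the chimera at MOI 100 and at 4.62 in GFP, 17.7 in the chimera and 5.83 to 14.6 in the other 4 libraries. Fos was at 4.685 CPM or less everywhere. Jun ranged from 25.2 CPM in MyoD to 174 CPM in WCS at MOI 100. Hmga2, a chromatin protein of embryonic cells, was 5.72-fold below GFP in the chimera at MOI 100 (5.34 to 6.13) and 4.53-fold below in WCS at MOI 100 (4.27 to 4.81). The list median over GFP was -0.76 in the chimera and -0.09 in MyoD, against 0.03 and -0.03 for all measured genes.

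**Figure D5:**
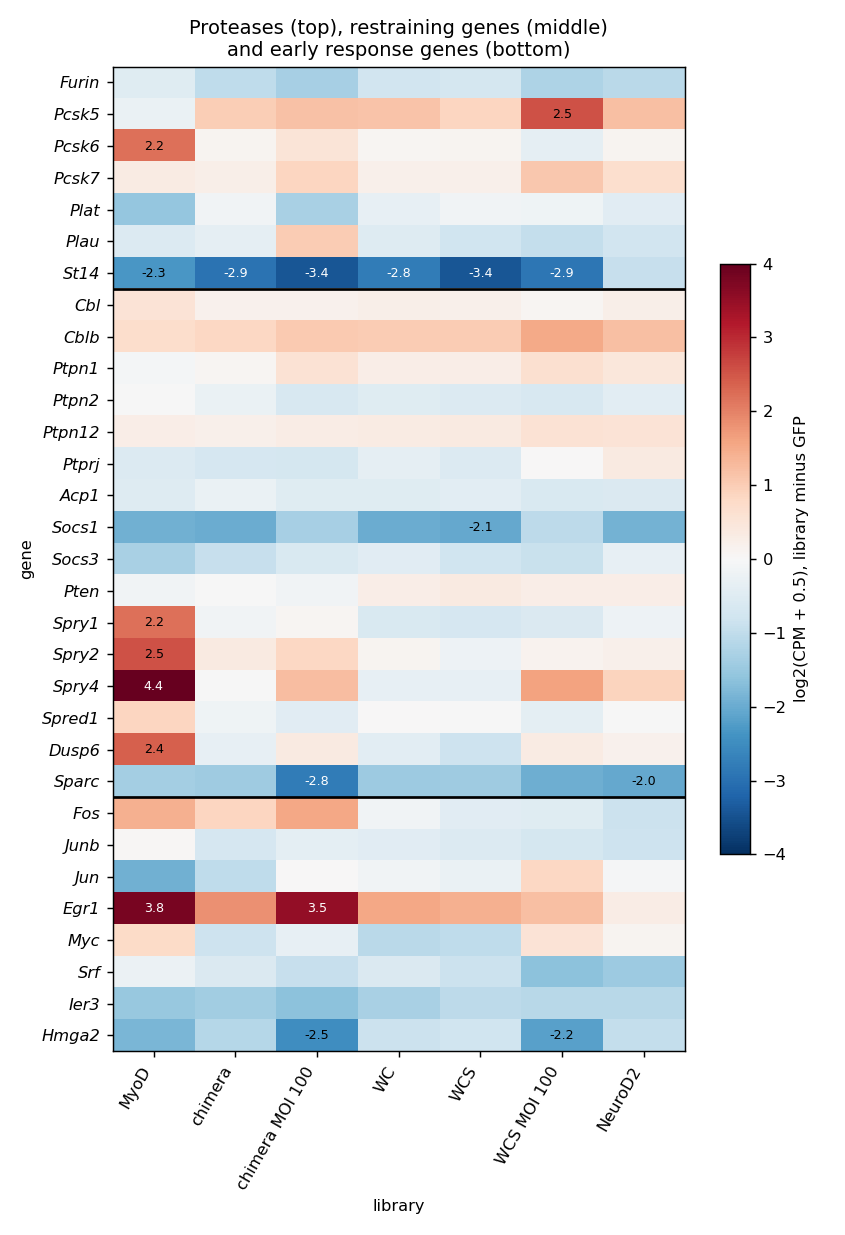
Difference in log2(CPM + 0.5) between each of 7 libraries (columns) and GFP for the 7 proteases, 16 restraining genes and 8 early response genes measured (rows); numbers are printed where the difference is 2 or more either way, and some of these fall under 5 CPM. Spry1, Spry2, Spry4 and Dusp6 stand out in MyoD, Egr1 in MyoD and the chimera at MOI 100, and St14 is lower in 6 libraries.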

How the data were processed

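RNA from 8 P19 cultures was sequenced after oligo-dT selection, 1 library per group. The authors deposited raw counts of reads per Ensembl gene. Per the submitters' processing notes they used CASAVA 1.8.2, TopHat2 2.0.8 and build mm9. For the counting tool, annotation release and strand setting nothing is stated, that is, not given in the sources used here. Symbols were matched by identifier for 32850 of 37558 genes. Counts were scaled to CPM with TMM in edgeR 4.0.16 over the 8 libraries (factors 0.935 to 1.09), in R 4.3.3, and intervals came from scipy 1.17.1 under Python 3.11.15. At these depths 3 counts, the floor, are 0.0730 to 0.115 CPM. Each ratio divides 2 CPM values, and its 95% interval is the exact Clopper-Pearson interval on the pair of counts. Reads from PCR are not independent molecules, so intervals and floors cover counting error only. No test was made. In all, 16 comparisons of library pairs were described. Exon lengths came from GENCODE M21, on a later build than mm9.

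The members and lists were chosen with earlier results of these data known. Named genes followed a rule: the 6 members, Myod1 and Neurod2, the 5 nearest profiles of each member, and in each pathway list the 4 genes with the widest range and any that met the size rule over GFP. Plat and the examples among the markers fall outside it and were picked with values in view. Results were recomputed with size factors from DESeq2 1.42.0, with total gene counts, with a pseudocount of 2 CPM and with no minimum level.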

Additional observations from a re-analysis of the deposited data

How the results depend on the processing

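Across 80 log2 ratios of members none changed by more than its counting interval with DESeq2 size factors (largest move 0.04) or total gene counts (0.20), and 20 did with a pseudocount of 2 CPM (up to 1.23), which draws low levels together. One sign changed: Pdgfrb in WCS over GFP was -0.04 and became 0.005 with total counts, and its interval spans no difference. Total counts shift the median of all measured genes by 0.10 to 0.21 over GFP in the chimera, NeuroD2 and both MOI 100 libraries, and members near the limit fall on its other side. Members meeting the size rule then numbered 0 in NeuroD2, 2 in the chimera at MOI 100, 1 in WCS and 1 in WCS at MOI 100 over GFP, and 1 in the chimera over MyoD. MyoD over NeuroD2 still had 2, but Pdgfc left at 1.98 and Pdgfra came in as lower at -2.02. With a pseudocount of 2 CPM they numbered 0 in NeuroD2 and 0 in WC, 1 in WCS and 1 in WCS at MOI 100 over GFP, 1 in MyoD over NeuroD2 and 1 in the chimera over MyoD.

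Over all genes that pseudocount gave 284 genes for the chimera, 313 for WC and 353 for WCS over GFP, 231 in the chimera over NeuroD2, 93 for WC and 131 for WCS against the chimera, 177 in WCS over the chimera at MOI 100, 77 and 94 for the MOI 100 label in the chimera and WCS, and 1 in WC over WCS, against 449, 493, 535, 358, 161, 209, 281, 144, 183 and 3. With no minimum level WC over WCS gave 5. The chimera over GFP had 2 members under all 4 alternatives. Beyond the pseudocount, the cause was not tested. No paired analysis was possible because each group has 1 library. Pdgfrb, Pdgfb outside GFP and Pdgfd rest on few counts.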

Other observations

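Receptors and ligands related to the PDGF family were also measured. Kit, the stem cell factor receptor, was highest in the chimera at 66.5 CPM, against 33.3 in GFP and 12.9 to 39.6 in the other 6 libraries. Flt1, a VEGF receptor, stood at 20.45 CPM in GFP, 10.7 in NeuroD2 and 1.63 to 9.495 in the other 6. It was 12.5-fold below GFP in WCS (9.38 to 17.2). Flt4, another VEGF receptor, was 5.64-fold below GFP in the chimera at MOI 100 (4.05 to 8.05). In WCS at MOI 100 it was 5.68-fold below (4.14 to 7.97). Kdr stayed at 1.70 CPM or less. Of 6 related receptors 5 were measured.

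Among the related ligands, 7 of the 9 symbols listed were matched and all 7 measured. Vegfd was 14.5-fold above GFP in the chimera at MOI 100 (10.3 to 20.9), at 13.01 CPM, with 4.48 CPM in the chimera and 2.1 CPM or less elsewhere. Csf1, a macrophage growth factor, was highest in both chimera libraries, at 17.1 and 20.3 CPM against 4.92 to 15.0 elsewhere. Pgf, placental growth factor, was highest in MyoD at 3.53 CPM, and Vegfc stayed at 3.26 CPM or less.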
